A study of Mus musculus with 12 samples.

Results

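The Wnt genes examined here are 52 genes of Wnt signalling in C2C12 mouse myoblasts: 19 ligands, 15 receptors and co-receptors, 4 genes of the destruction complex and β-catenin, 4 TCF/LEF factors, 7 secreted inhibitors and 3 R-spondins. Their members are ATAC-seq peaks whose centre lay in the annotated gene or within 10 kb of it. By this rule the Wnt genes held 93 of the 34118 peaks of wild-type (WT) cells and 75 of the 27187 peaks of Runx1 knockout (KO) cells. All 52 genes were found in the gene table, among 21627 protein-coding genes.

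C2C12 is an established line of mouse myoblasts, which divide when serum is plentiful and form myotubes when it is withdrawn, and ATAC-seq marks open DNA by the cuts of the Tn5 transposase. The 2 groups used are control (WT) and Runx1KO cells, which lack the transcription factor Runx1, in growth media with 20% FBS at day 0, each with 3 labelled samples and collected near confluency. They share the cell line and the medium. Every peak name carries the label of replicate 1 of its genotype, so replicate error cannot be given for any value and the genotypes are compared without p-values. The labels do not say how the knockout was made or whether the line is 1 clone, and differentiation media samples (day 2) were not analysed here. Sequencing depth is unknown.

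Wnt ligands are secreted lipid-modified proteins that bind a Frizzled receptor together with the co-receptor Lrp5 or Lrp6. Binding stops the destruction complex, which is built on the scaffolds Axin and Apc, from marking β-catenin for degradation, and β-catenin then enters the nucleus and acts with TCF/LEF factors on their target genes. The receptors Ror1, Ror2 and Ryk carry signals that need no β-catenin. In skeletal muscle the pathway is known for its part in the specification of embryonic muscle, in myoblast differentiation and in regeneration.

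A peak was called shared when it overlapped a peak of the other genotype by at least 1 bp, and otherwise WT specific or KO specific. Of the values the authors deposited for each peak, 2 are used here, the fold enrichment over local background and the −log10 q. Both describe a peak within its own list. Where values of both lists stand side by side below, they are not a measured change, because both depend on the depth of the library. Of the myoblast markers, 4 of 8 had a WT peak centred within 1 kb of a gene end (Myod1, Des, Chrna1 and Ncam1). A KO peak lay there at 3 of 8 (the same without Ncam1, whose 6 KO peaks lay farther away). Cdh15 had 2 WT and 2 KO peaks, all farther from the gene ends, while Myf5, Msc and Myog had no peak. The shares over protein-coding genes were 42.6% and 38.8%. Of 8 markers of leukocytes, endothelium, epithelium and neural cells, 1 had such a peak in either list (Tubb3), and Ptprc, Epcam and Sox10 had no peak at all. The other 4 had peaks farther from the gene ends, with 3 WT and 3 KO peaks at Krt8, 3 and 2 at Cd68, 2 and 1 at Pecam1, and 1 and 2 at Cdh5. At Runx1, the targeted gene, the lists held 19 WT and 12 KO peaks, which do not read out the edited allele.

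The counts of peaks at gene starts differed between the roles. A start window runs from 250 bases before to 50 bases after an annotated start, and the RefSeq table used (GRCm38.p6) holds windows for 36 of the 52 genes. None of the 15 ligand genes with a window had a peak of either list over one (0%, exact 95% binomial interval 0 to 21.8), over 18 windows. This count depends on the window edges, since the ligands Wnt1, Wnt5b and Wnt10b had a peak within 1 kb of a start. Among receptors and co-receptors, 7 of 9 genes had one (77.8%, interval 40.0 to 97.2). Axin2 and Ctnnb1 both had one, as did 2 of 4 TCF/LEF factors and 1 of 5 secreted inhibitors. The single R-spondin with a window, Rspo1, had none. Over all Wnt genes the count was 12 of 36 (33.3%), against 44.0% of the 17273 protein-coding genes with a window. The count of ligands rests on annotated starts and on 1 peak list per genotype, and the difference between the roles was described and not tested.

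**Figure D1:**
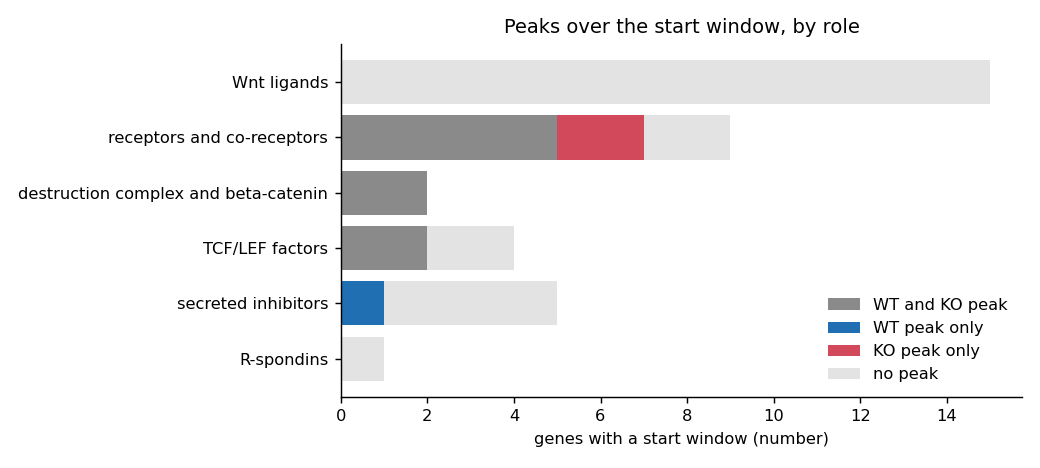
Number of Wnt genes with a start window (horizontal axis), by role (rows), divided by whether a WT peak, a KO peak, both or neither overlapped a window of the gene. All 15 ligand genes fall in the class without a peak, and 7 of 9 receptor genes have one.

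At 9 genes the start was covered in both lists: Fzd1, Fzd4, Fzd5, Fzd7, Ror1, Axin2, Ctnnb1, Tcf7l1 and Tcf7l2. At 3 genes it was covered in 1 list. The start of Wif1, which encodes a secreted inhibitor that binds Wnt proteins, lay under a WT specific peak, and those of Fzd9, a Frizzled receptor, and Ryk lay under KO specific peaks. The bases before these 3 starts are shown first, because they are the Wnt gene starts that were covered in a single genotype. Capitals mark bases under that genotype's peak, and each sequence is the 250 bases before the start, written 5′ to 3′ on the strand of the gene, from RefSeq GRCm38.p6. The same stretch of Wnt1 follows, since 2 WT specific peaks flank it and none covers it.
Wif1: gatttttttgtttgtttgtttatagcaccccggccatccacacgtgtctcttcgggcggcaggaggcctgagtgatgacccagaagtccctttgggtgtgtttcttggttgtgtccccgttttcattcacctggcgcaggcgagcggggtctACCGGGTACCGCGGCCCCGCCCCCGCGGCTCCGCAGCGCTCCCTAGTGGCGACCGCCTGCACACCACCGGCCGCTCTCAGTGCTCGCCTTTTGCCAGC
Fzd9: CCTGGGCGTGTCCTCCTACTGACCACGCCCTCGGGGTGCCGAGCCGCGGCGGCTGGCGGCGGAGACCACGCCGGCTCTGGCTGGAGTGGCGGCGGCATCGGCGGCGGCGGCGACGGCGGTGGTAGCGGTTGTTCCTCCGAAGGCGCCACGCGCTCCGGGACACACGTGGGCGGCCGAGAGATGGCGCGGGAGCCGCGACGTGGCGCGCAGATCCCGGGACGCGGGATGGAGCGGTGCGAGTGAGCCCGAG
Ryk: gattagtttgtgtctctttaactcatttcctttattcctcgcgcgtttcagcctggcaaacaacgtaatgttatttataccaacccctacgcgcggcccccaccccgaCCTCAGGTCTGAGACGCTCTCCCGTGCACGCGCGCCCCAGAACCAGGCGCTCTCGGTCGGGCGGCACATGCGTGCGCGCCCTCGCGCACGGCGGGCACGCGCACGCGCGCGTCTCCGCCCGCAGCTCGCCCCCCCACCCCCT
Wnt1: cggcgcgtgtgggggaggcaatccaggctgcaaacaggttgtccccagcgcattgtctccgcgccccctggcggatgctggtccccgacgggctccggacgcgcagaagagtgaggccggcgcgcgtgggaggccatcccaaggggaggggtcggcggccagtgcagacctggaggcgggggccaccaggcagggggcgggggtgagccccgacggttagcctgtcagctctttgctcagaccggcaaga
These stretches lie at chr10:121033754-121034003 (plus strand, Wif1), chr5:135251048-135251297 (minus strand, Fzd9), chr9:102834670-102834919 (plus strand, Ryk) and chr15:98789607-98789856 (plus strand, Wnt1). The WT peak covered 98 of the 250 bases at Wif1, and the KO peaks covered all 250 at Fzd9 and 142 at Ryk. All 4 are rich in G and C (62.8%, 76.4%, 65.2% and 71.6%), and that of Fzd9 holds 42 CpG dinucleotides.

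The Wif1 peak at chr10:121033906-121034152 was weak, with fold 4.91 and −log10 q 4.14. A shared peak stood next to it at chr10:121033272-121033590, centred 573 bp outside the gene, with a fold of 6.55 in WT and 7.04 in KO. The nearest KO peak was therefore 311 bp from the WT specific peak, and with a distance of 500 bp allowed between partners Wif1 had no WT specific peak. The Ryk peak at chr9:102834778-102834945 had the lowest −log10 q of the KO specific peaks at the Wnt genes (3.94, with a fold of 4.79). The Fzd9 peak at chr5:135251011-135251476 was stronger (fold 6.96, −log10 q 10.8), and no WT peak lay closer than 63489 bp.

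Among starts covered in both lists, that of Fzd1 had the highest fold and that of Tcf7l2 the lowest. The peak over the start of Fzd1 had a fold of 17.7 in WT and 13.0 in KO. Tcf7l1, a factor that mainly represses Wnt targets, came next in the WT list with 13.5, and had 10.4 in the KO list. Fzd4 had 12.3 and 7.96, Fzd7 11.8 and 10.6, and Fzd5 11.3 and 8.53. The Fzd4 peak also covers the start window of the neighbouring gene Tmem135, so it cannot be assigned to 1 of the 2 genes. Ror1 had 11.7 and 7.70, Axin2 8.69 and 7.73, Ctnnb1 8.59 and 7.33, and Tcf7l2 8.09 and 5.93.

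Short letter strings known from the binding sites of factors of this cell type were searched on both strands of the windows: TGTGGT (RUNX), CCGGAAGT (ETS), TGANTCA (AP-1), CANNTG (E-box), CTTTGAT (TCF/LEF) and GGAATG (TEAD). No string contains another, though matches may share bases. Of the 13 Wnt windows under a peak, 1 held TGTGGT and 5 held CANNTG, and none held any of the other 4 strings. Over all 9926 windows under a peak the shares were 12.3% for TGTGGT, 60.9% for CANNTG, 9.88% for CCGGAAGT, 5.45% for TGANTCA, 2.41% for CTTTGAT and 11.4% for GGAATG. The median G and C content was 70.0% in those 13 windows and 62.0% in the 9926. The window with TGTGGT is that of Ror1, where the string spans positions −96 to −91 from the start base, and the only other Wnt window with it is that of Dkk1, which had no peak. Of the covered starts, 3 are shown with matches in capitals, TGTGGT for Ror1 and CANNTG for Fzd1 and Fzd5.
Ror1: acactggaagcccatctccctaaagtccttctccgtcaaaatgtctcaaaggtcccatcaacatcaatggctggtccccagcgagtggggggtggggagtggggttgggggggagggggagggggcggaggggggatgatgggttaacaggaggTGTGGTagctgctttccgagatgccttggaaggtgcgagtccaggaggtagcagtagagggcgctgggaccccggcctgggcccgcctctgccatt
Fzd1: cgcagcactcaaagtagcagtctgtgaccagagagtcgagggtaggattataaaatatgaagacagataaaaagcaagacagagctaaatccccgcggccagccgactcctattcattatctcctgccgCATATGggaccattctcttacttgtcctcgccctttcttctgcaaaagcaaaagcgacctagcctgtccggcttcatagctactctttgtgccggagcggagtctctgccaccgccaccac
Fzd5: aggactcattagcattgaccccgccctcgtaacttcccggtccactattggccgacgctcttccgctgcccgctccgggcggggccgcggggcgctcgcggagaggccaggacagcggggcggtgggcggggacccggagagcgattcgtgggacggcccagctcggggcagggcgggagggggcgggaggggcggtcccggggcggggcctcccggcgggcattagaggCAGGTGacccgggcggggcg
They lie at chr4:100095541-100095790 (plus strand), chr5:4758217-4758466 (minus strand) and chr1:64737751-64738000 (minus strand). A match describes the letters and shows no binding.

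Wnt5a, Wnt7b, Wnt8a, Wnt10a, Fzd2, Fzd3, Fzd6, Fzd8, Lrp5, Lrp6, Axin1, Apc, Dkk3, Sfrp1, Rspo2 and Rspo3 had no window in that table. For a count over all 52 genes, peaks centred within 1 kb of either end of the gene were used. Receptors and co-receptors had the largest share, with 11 of 15 genes in the WT list and 10 of 15 in the KO list. Ligands had 4 of 19 (Wnt1, Wnt2b, Wnt7b and Wnt10b) and 3 of 19. The background over protein-coding genes was 42.6% for WT and 38.8% for KO peaks. At Fzd2 the peak centre lay 178 bp from a gene end (fold 10.9 in WT and 9.96 in KO), at Fzd8 618 bp (13.8 and 8.52) and at Fzd6 175 bp (9.63 and 7.83). At Fzd3 and Lrp6 the peak at the gene end was WT specific, 102 bp and 174 bp away, with a −log10 q of 4.62 and 7.41.

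Across both lists, 40 of the 52 Wnt genes had at least 1 peak (65.8% of protein-coding genes had one). The 12 genes without a peak were the ligands Wnt3, Wnt5a, Wnt9b and Wnt11, the receptor Fzd10, the TCF/LEF factor Lef1, the inhibitors Dkk1, Dkk2, Sfrp1, Sfrp2 and Frzb, and Rspo3. Secreted inhibitors had the smallest share of genes with a peak, 2 of 7, whereas 14 of 15 receptors and co-receptors had one. Of the 40 genes, 19 had shared peaks only, and 14 had WT specific and no KO specific peaks. A further 3 had KO specific and no WT specific peaks (Wnt2, Fzd9 and Ctnnb1). The other 4 had both (Wnt5b, Fzd6, Ryk and Tcf7l2), as did 5.06% of protein-coding genes with a peak. For the first 3 of these classes no share over protein-coding genes is given, so their counts are a description only. A WT specific peak was found at 18 Wnt genes (25.3% of all protein-coding genes and 38.4% of those with a peak had one) and a KO specific peak at 7 (7.45% and 11.3%).

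**Figure D2:**
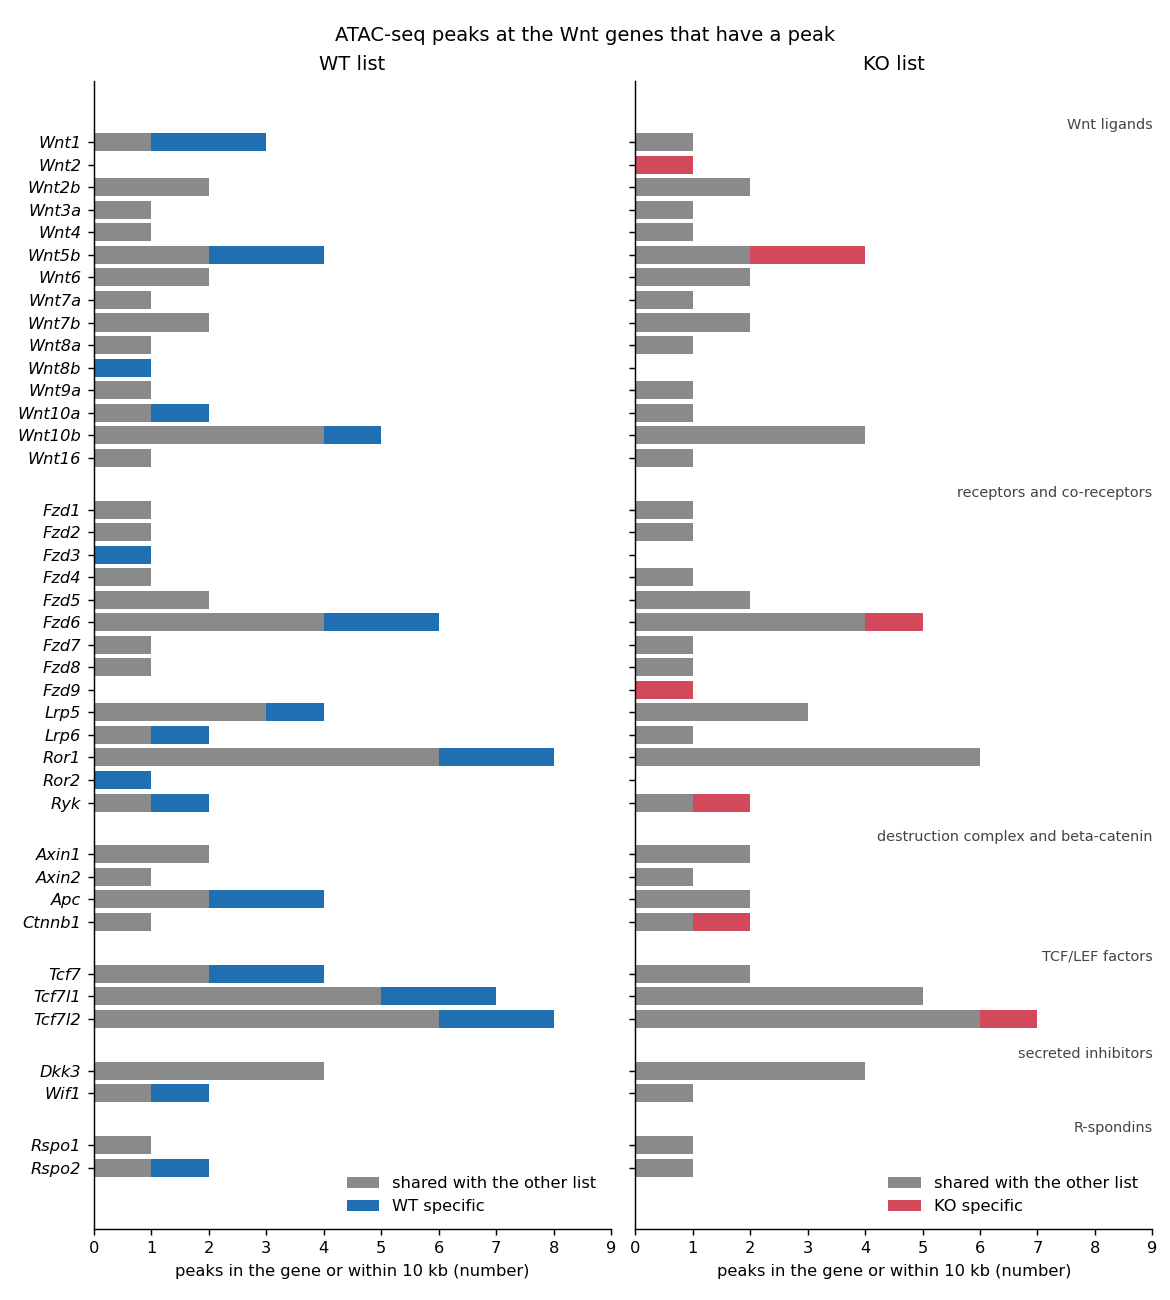
Number of peaks in the gene or within 10 kb (horizontal axis) for the 40 Wnt genes with a peak (rows, grouped by role), in the WT list (left) and the KO list (right), with shared peaks in grey and specific peaks in colour. Ror1 and Tcf7l2 have the most WT peaks, 8 each, and 1 shared peak between Wnt10b and Wnt1 is drawn at both genes.

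Of the 93 WT peaks, 26 were WT specific (28.0%, exact interval 19.1 to 38.2), against 27.3% of all WT peaks and 25.6% of WT peaks at protein-coding genes. Of the 75 KO peaks, 8 were KO specific (10.7%, interval 4.72 to 19.9), against 9.59% and 7.94%. Both shares lay near their background, which lies inside the intervals. Counted gene by gene, the Wnt genes had 26 WT specific and 8 KO specific peaks, and the means over all protein-coding genes with the same numbers of peaks added up to 23.0 and 5.33. By role, the WT specific share ran from 16.7% at secreted inhibitors (1 of 6 peaks) to 33.3% at R-spondins (1 of 3), with 26.9% at ligands (7 of 26), 29.0% at receptors (9 of 31), 25.0% at the destruction complex and β-catenin (2 of 8) and 31.6% at TCF/LEF factors (6 of 19). Each of these intervals includes the background.

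**Figure D3:**
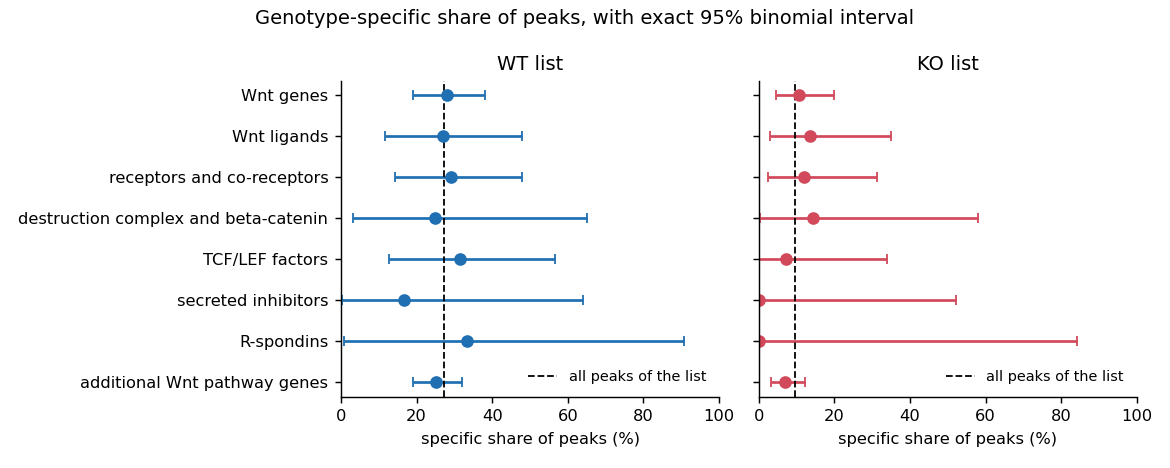
Share of peaks specific to the genotype (horizontal axis, percent) in the WT list (left) and the KO list (right) for the Wnt genes, each role and the additional pathway genes, as points with exact 95% binomial intervals, and the share over all peaks of the list as a dashed line. All intervals of both panels include the dashed line.

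By their medians, specific peaks were weaker and narrower than shared ones in both lists. WT specific peaks at the Wnt genes had a median −log10 q of 7.32 (2.89 to 17.7), a median fold of 5.91 and a median width of 268 bp, and shared WT peaks had 22.5 (3.67 to 81.0), 10.2 and 462 bp. Over the whole WT list the medians of −log10 q were 8.38 and 21.1. Of the 26 WT specific peaks 1, at Lrp5, reached the list's median −log10 q of 16.1, and 42 of 67 shared peaks did. Over the whole WT list 1052 of 9318 specific and 16009 of 24800 shared peaks reached it. Among the 8 KO specific peaks the median −log10 q was 9.07 (3.94 to 39.6), and 1, at Wnt2, reached the KO median. Over the whole KO list 197 of 2607 specific peaks reached it. With a −log10 q of at least 10, 9 of 63 WT peaks (14.3%, background 14.4%) and 4 of 55 KO peaks (7.27%, background 4.49%) were specific. A further restriction kept peaks no narrower than the median width of their own list, 371 bp in WT and 421 bp in KO. The specific shares were then 8.16% in WT (4 of 49, interval 2.27 to 19.6, background 11.6%) and 7.50% in KO (3 of 40, interval 1.57 to 20.4, background 3.08%). The gap between the genotypes was 0.663 percentage points, as opposed to 17.3 without the restriction. It rests on few peaks and on unlike width limits, and the backgrounds kept a wider gap. The numbers in the peak names skip in places. Around 22 of the 26 WT specific peaks at least 1 number was missing between the flanking KO peaks. WT numbers were missing around 7 of the 8 KO specific peaks. Whether the other genotype had a call there therefore cannot be read from the lists. The share over all specific peaks is not given here, so these counts have no background.

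**Figure D4:**
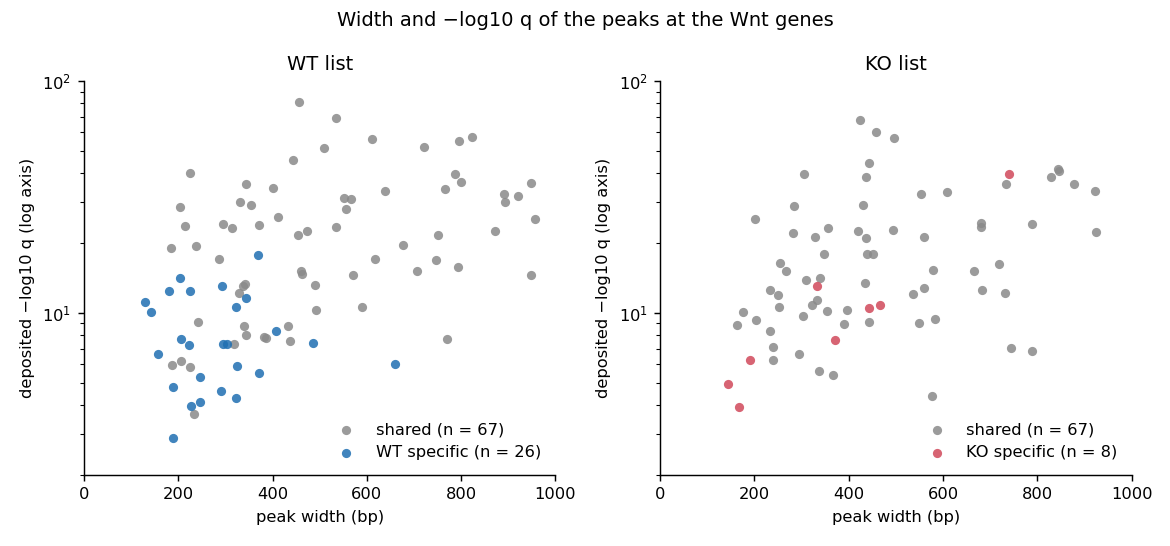
Width in bp (horizontal axis) and deposited −log10 q (vertical log axis) of each peak at the Wnt genes in the WT list (left) and the KO list (right), shared in grey and specific in colour. All WT specific points lie at or below a −log10 q of 17.7, and the KO specific peak near Wnt2 stands apart at 39.6.

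Among ligands with a start window, open sites lay beside or inside the genes, outside the windows. For Wnt7b, Wnt8a and Wnt10a, which have peaks but no window, this cannot be said. Wnt10b, a ligand of the β-catenin branch, had the most WT peaks of the ligands, 5, and its neighbour Wnt1 had 3. The 2 genes stand head to head on chromosome 15. A shared peak between them at chr15:98780169-98780991, centred 2374 bp outside Wnt10b and 9277 bp outside Wnt1, had a fold of 10.2 in WT and 8.26 in KO. The WT list had 2 more peaks around the start of Wnt1, at chr15:98789085-98789241 (−694 bp from the start, fold 4.92, −log10 q 6.63) and chr15:98789948-98790291 (263 bp into the gene, fold 6.41, −log10 q 11.6). Neither had a KO partner, and the nearest KO peak was 8069 bp and 8932 bp away. The WT specific peak of Wnt10b, at chr15:98762219-98762540, lies in Arf3 and over the start window of another gene, so its tie to Wnt10b is by distance only.

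Wnt4 had the highest −log10 q of the ligands in the WT list, at a single site inside the gene at chr4:137287204-137287737, with fold 16.1 and −log10 q 69.6 in WT and 11.8 and 44.2 in KO. Wnt2 had no WT peak and 1 KO specific peak at chr6:17978345-17979083, 6760 bp outside the gene, with fold 15.1 and −log10 q 39.6, at percentile 87.9 of its list. It was the highest genotype-specific peak of all Wnt genes, and the nearest WT peak was 54641 bp away. Wnt5b, a ligand of the branch without β-catenin, was the only Wnt gene with 2 specific peaks of each genotype, all inside the annotated gene, which also spans the region of Fbxl14. Its WT specific peaks had a −log10 q of 7.33 (chr6:119467508-119467802) and 2.89 (chr6:119526543-119526731), and its KO specific peaks 10.5 (chr6:119446070-119446512) and 13.0 (chr6:119493860-119494192). The 2 shared peaks of Wnt5b, 1 of them over the start window of Fbxl14, lay among them, with a −log10 q of 16.9 and 35.8 in WT and 15.3 and 38.5 in KO.

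Wnt8b had a single peak, which was WT specific, at chr19:44487419-44487547, 5989 bp outside the gene, and at 129 bp the narrowest of the WT peaks at the Wnt genes. Wnt10a had a WT specific peak at chr1:74806700-74807359, the widest of the WT specific peaks at 660 bp, with a −log10 q of 6.04, beside a shared peak with 21.7 in WT and 6.28 in KO. The ligands Wnt2b, Wnt3a, Wnt4, Wnt6, Wnt7a, Wnt7b, Wnt8a, Wnt9a and Wnt16 had shared peaks only. Their highest −log10 q in the WT list ran from 7.79 at Wnt16 to 69.6 at Wnt4. In the KO list the highest of the ligands were Wnt7b with 60.5 (36.7 in WT) and Wnt3a with 56.8 (51.5 in WT).

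Of the receptors and co-receptors, the short Frizzled genes had few and mostly shared peaks. Fzd1, Fzd2, Fzd4, Fzd7 and Fzd8 had 1 peak and Fzd5 had 2, every one with a KO partner. Fzd6 differed from them in number, with 6 WT and 5 KO peaks, of which 4 were shared, 2 WT specific and 1 KO specific. The WT specific peaks lay at chr15:39020937-39021239 (−log10 q 7.30) and chr15:39042113-39042520 (8.32), and the KO specific peak at chr15:39040254-39040443 (6.28). The second of these WT specific peaks stood 791 bp from a KO peak and was the only one of the 26 whose start is repeated in an unlabelled last column of the specific list, as it is for 993 of all 9318.

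Lrp5, the co-receptor that passes the Wnt signal on together with its relative Lrp6, had the highest −log10 q of this role in the WT list, 56.4 at chr19:3681188-3681797. The same site had 22.7 in KO, where the peak of Lrp5 at the start of Ppp6r3 was higher (36.0). It also had the strongest WT specific peak of the Wnt genes, at chr19:3669112-3669481, with fold 9.62 and −log10 q 17.7. The peak over the start window of Ppp6r3 lies at chr19:3575484-3576374. Ror1, a receptor for Wnt5a that is known from embryonic tissue, held 8 WT and 6 KO peaks along 349 kb. All 6 KO peaks were shared, and the WT specific peaks lay inside the gene at chr4:100188326-100188552 (fold 4.80, −log10 q 3.97) and chr4:100239559-100239738 (8.71 and 12.4). Its 2 WT specific peaks are near the mean of 2.18 over the 94 protein-coding genes with 8 WT peaks.

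Ror2, the paralogue of Ror1, had 1 WT specific peak at chr13:53109628-53109832, 413 bp from the end of the gene and 176394 bp downstream of its start, with a −log10 q of 7.71, and no KO peak. Ryk had a WT specific peak at chr9:102842620-102842865 (−log10 q 5.26), 750 bp from the nearest KO peak. The shared peak of Ryk had a −log10 q of 12.2 in WT and 21.3 in KO.

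In the destruction complex, Axin1 had the strongest peak of all Wnt genes in the WT list, inside the gene at chr17:26138333-26138789, with fold 18.4 and −log10 q 81.0, and with 15.6 and 68.0 in the KO list. Axin2, a scaffold that is itself a target of β-catenin, had 1 shared peak, over its start. Apc had 4 WT peaks, 2 of them WT specific and inside the gene, with a −log10 q of 14.1 and 4.30, and 2 KO peaks. Ctnnb1, which encodes β-catenin, had a KO specific peak at chr9:120958173-120958315, 24666 bp downstream of its start, which at 143 bp was the narrowest of the 8 (fold 4.99, −log10 q 4.93).

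The 3 TCF/LEF factors with peaks each had 2 WT specific peaks, and they held 6 of the 26. Tcf7l2, a main nuclear partner of β-catenin, had 8 WT and 7 KO peaks. Its WT specific peaks lay at chr19:55747371-55747694 (−log10 q 5.91) and chr19:55781708-55781850 (10.1) and its KO specific peak at chr19:55767219-55767589 (7.65), 1339 bp from the nearest WT peak. Tcf7l1 had 7 WT peaks and 5 KO peaks, all of the latter shared. Its WT specific peaks lay at chr6:72653518-72653705 (4.79) and chr6:72748435-72748727 (13.1), and its highest −log10 q in either list was at chr6:72659679-72660626, with 36.2 in WT and 41.7 in KO. Tcf7 had WT specific peaks at chr11:52252837-52253207 (5.48) and chr11:52262045-52262267 (7.29). Both are closer to an end of Skp1 than of Tcf7. The mean number of WT specific peaks over protein-coding genes with as many WT peaks was 2.18 for Tcf7l2, 2.25 for Tcf7l1 and 1.09 for Tcf7 (981 genes).

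**Figure D5:**
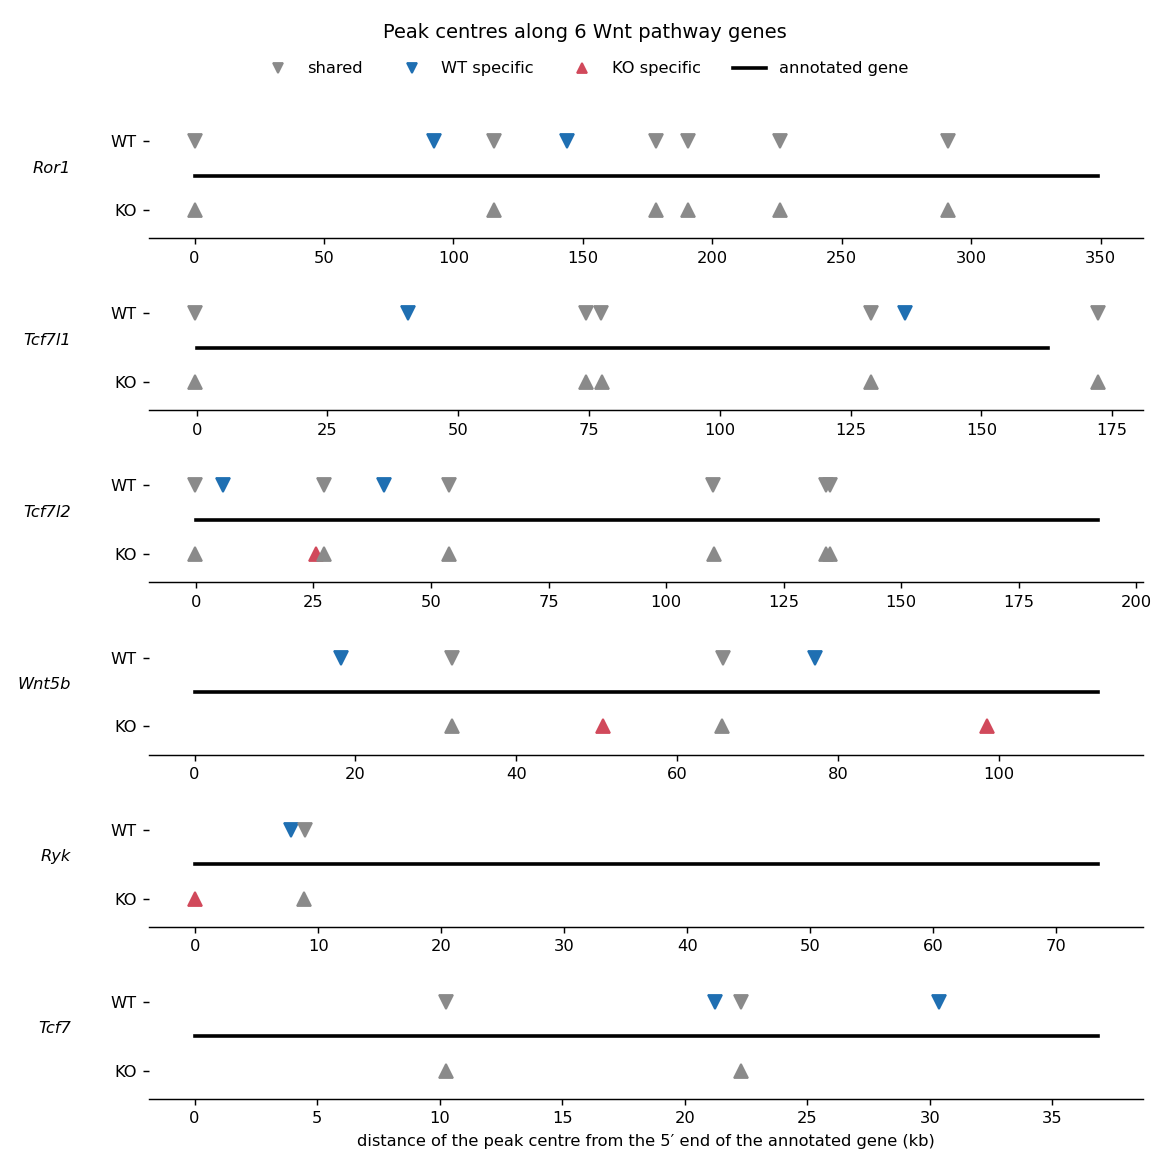
Position of peak centres in kb from the 5′ end of the annotated gene (horizontal axis, a separate scale for each gene) for Ror1, Tcf7l1, Tcf7l2, Wnt5b, Ryk and Tcf7, with WT peaks above and KO peaks below the black line of the gene, grey where shared and coloured where specific. All specific peaks drawn lie inside the genes, apart from the KO specific peak just before the start of Ryk.

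Some shared sites had values far apart in the lists. At Tcf7, the peak at chr11:52272675-52273566 had a −log10 q of 30.2 in WT and 6.83 in KO. At Tcf7l1, the peak at chr6:72711292-72712163 had 22.5 and 5.40. The opposite order was seen at Fzd6, where the peak at chr15:39047727-39048218 had 10.3 in WT and 22.3 in KO. When peaks under the WT median of −log10 q were left out of both lists, 17 of 43 WT peaks at the Wnt genes had no KO partner left (39.5%, against 25.4% of all such WT peaks) and 8 of 34 KO peaks had no WT partner left (23.5%, against 14.8%). The exact intervals, 25.0 to 55.6 and 10.7 to 41.2, include the background in both cases.

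Of the secreted inhibitors, Dkk3, a divergent member of the Dickkopf family, had 4 peaks inside the gene, all shared, with a −log10 q from 7.55 to 25.9 in the WT list. These and the 2 peaks of Wif1 made up the 6 WT peaks of the 7 inhibitor genes. R-spondins amplify the Wnt signal by keeping Frizzled receptors on the cell surface. Rspo2 had a shared peak inside the gene with a −log10 q of 28.5 in WT and 25.5 in KO, and a WT specific peak at chr15:43133322-43133547 with 12.4. Rspo1 had 1 shared peak, 2055 bp outside the gene, with 24.2 and 23.3.

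Most of the peaks were closer to an end of a Wnt gene than to any other protein-coding gene: 58 of 67 shared and 21 of 26 WT specific WT peaks, and 7 of 8 KO specific peaks. Inside a Wnt gene lay 39 of 67 shared, 19 of 26 WT specific and 4 of 8 KO specific peaks. The shares over all peaks at protein-coding genes are not given for these places, and the difference between the classes was not tested. The peaks nearest the limit of 10 kb were the shared peak of Fzd6 at 9781 bp in the WT list (−log10 q 10.3) on the inside and, on the outside, a shared peak 10422 bp from Wnt1 with 6.94.

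At the 68 additional genes of the pathway, the specific shares of peaks also lay near their background. Of these genes 59 had a peak, 30 a WT specific and 7 a KO specific peak. The shares over all protein-coding genes were 65.8%, 25.3% and 7.45%. Of protein-coding genes with a peak, 38.4% had a WT specific and 11.3% a KO specific peak. WT specific peaks made up 46 of 183 WT peaks (25.1%, interval 19.0 to 32.1) and KO specific peaks 10 of 145 KO peaks (6.90%, interval 3.36 to 12.3), again with the background inside the interval. A peak lay over the start of 21 of 45 genes (46.7%), against 44.0% of protein-coding genes with a window. Among them were 8 of 9 signal transducers and destruction complex genes, and none of 5 secreted modulators. Prickle2, a cytoplasmic protein of planar cell polarity, had the most KO specific peaks, 4 of its 6 KO peaks. The mean over the 172 protein-coding genes with as many KO peaks was 0.535. Those at chr6:92534737-92535098 (−log10 q 24.0) and chr6:92481031-92481485 (17.1) covered a start each, and neither had a WT peak within 50 kb. Between the WT peaks that flank the 4 KO specific peaks, 829 kb apart, 4 peak numbers were missing. Whether WT had a call there cannot be read from the lists. The 2 shared peaks of Prickle2 had a −log10 q of 55.6 and 20.6 in the KO list and 7.38 and 6.04 in the WT list.

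Of the additional genes, 4 had 3 or more WT specific peaks. For each, the mean over protein-coding genes with as many WT peaks is given beside the count. Znrf3, a ubiquitin ligase that removes Frizzled receptors from the surface, had 4 among 7 WT peaks (mean 2.25), 1 of them 225 bp outside the gene at chr11:5444849-5445294. Kremen1, a receptor for Dickkopf proteins, had 3 among 9, near the mean of 2.73. Apc2, a relative of Apc, had 3 among 4 (mean 1.09), and that at chr10:80295670-80296018 covered its start (−log10 q 10.3). Daam2, a formin-related protein that binds Dishevelled, had 3 among 5 (mean 1.49). Nkd2, a feedback inhibitor that was singled out after its value was seen, had a single peak, WT specific and with fold 14.6 and −log10 q 38.9 at chr13:73842722-73843028. Between the KO peaks that flank it, 133 kb apart, 4 peak numbers were missing, so whether KO had a call there cannot be read.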

How the data were processed

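Chromatin accessibility was measured by ATAC-seq in C2C12 cells, 12 samples in 4 groups of 3 per the labels, of which the growth medium groups were used. The 5 deposited peak lists have no header and the layout of a narrowPeak file. Per the submitters' processing notes the build is mm10. Aligner, peak caller, Tn5 offset, duplicate handling and the rule that removed called peaks are not given in the sources used here, and each can change the number and edges of peaks. The fold enrichment (a ratio) and the −log10 q and p of each peak are the authors' deposited values, and their units were read from the file layout.

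Overlap of at least 1 bp gave exactly the deposited shared and specific lists (0 differences). Genes came from a RefSeq table of GRCm38.p6, which gives no exons. As a check of the build, 29.4% of start windows lay under a WT peak and 1.49% after a shift of the peaks by 10 kb. Coordinates count from 1. Shares have exact (Clopper-Pearson) 95% intervals that cover counting only, over peaks or, for the start windows, over genes. Values per gene were set beside all protein-coding genes. Genes were named if they had a specific peak, or the most or the strongest WT peaks of their role (additional genes: at least 3 specific peaks). Members and lists were chosen with earlier results of these data known. The tools were scipy 1.17.1, pandas 2.3.3 and numpy 2.4.6 under Python 3.11.15. The overlap, assignment and motif functions were tested on simulated data.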

Additional observations from a re-analysis of the deposited data

How the results depend on the processing

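With 1 peak list per genotype no replicate could be left out. No paired analysis was possible because each genotype has 1 list, whose peak names all carry the label of replicate 1. Whether the other replicates entered the filtering of calls is not stated. The WT specific share of the Wnt genes exceeded the KO specific share under all 10 alternatives, by 0.663 to 23.5 percentage points. Over all peaks of the lists the shares were 27.3% and 9.59%, so this order is that of the whole lists and not particular to the Wnt genes. The WT specific share (28.0%) moved to 39.5% when both lists were limited to the WT median −log10 q, to 14.3% for peaks with a −log10 q of at least 10 and to 8.16% for wide peaks. The KO share (10.7%) moved to 23.5% with both lists so limited. At the additional genes the WT share moved to 32.8% with reciprocal overlap, 11.0% at a −log10 q of at least 10 and 12.9% for wide peaks, and the KO share to 15.2% with reciprocal overlap and 19.0% with both lists limited. Wnt genes with a WT specific peak numbered 9 at a −log10 q of at least 10, 31 with a flank of 50 kb and 4 for wide peaks. Those with a KO specific peak numbered 11 with reciprocal overlap, 3 at a −log10 q of at least 10, 3 without a flank, 13 by the nearest gene end and 3 for wide peaks. Without a flank 25 Wnt genes had a peak. A peak within 1 kb of a start was found at 15 Wnt genes (12 with a peak over the window). Among the 15 were the ligands Wnt1, Wnt5b and Wnt10b, which had no peak over a window. The alternatives add or remove peaks or partners, and what moved each value was not tested. The restriction to wide peaks was chosen after seeing the data. The unknown depth and the single list per genotype limit every count.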
